A study of Mus musculus with 6 samples.

Results

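The canonical WNT pathway was followed in 10 genes of the 24421 in the deposited gene table: Ctnnb1, Axin1, the TCF/LEF factors Tcf7l1, Tcf7, Tcf7l2 and Lef1, the feedback genes Axin2, Znrf3 and Nkd1, and Sp5. They were chosen by name, as pathway components and recognised beta-catenin targets, with earlier results of these data known, and all 10 were present. RNA was sequenced from E14 cells, a mouse embryonic stem cell line: 2 libraries of cells with the genotype Pml-/- and 2 of wild-type cells. The product of Pml is the protein around which PML nuclear bodies assemble. Every library came from cells given 10 µM paraquat, a redox cycler that produces superoxide, for 15 h, so genotype is compared under treatment and the response to paraquat itself was not measured. All cells also grew with leukemia inhibitory factor, the MEK inhibitor PD0325901 and the GSK3 inhibitor CHIR99021. The labels list these inhibitors at 1 mM and 3 mM, although both are ordinarily used in the micromolar range. The labels do not say how the Pml alleles were made, whether the knockout line was 1 clone, or whether replicate libraries were grown separately; the p-values below therefore rest on a spread between libraries that may be technical. The other 2 of the 6 samples, chromatin labelled through a peroxidase fused to PML, were not analysed here.

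In the absence of a WNT ligand, beta-catenin is held by the scaffold AXIN and APC in a destruction complex, where the kinase GSK3 marks it for degradation. WNT binding to Frizzled and LRP receptors, or inhibition of GSK3, lets beta-catenin accumulate, enter the nucleus and bind the TCF/LEF factors on target genes. Several of these targets encode inhibitors of the pathway itself. In mouse embryonic stem cells the best known effect is relief of repression by TCF7L1 at genes of naive pluripotency, which is why a GSK3 inhibitor is part of the medium. That inhibitor acts at the level of the destruction complex and below the receptors, in both genotypes alike by design.

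Reads counted in genes, as recovered from the deposited values, numbered 38150397 and 43715807 in the knockout and 31384794 and 44130093 in wild type. The kit entry of wild-type library 2 names only the DNA kit of the chromatin samples, and that of knockout library 2 names this kit with another. Values without wild-type library 2 are therefore given where they alter a result. Pml was at 78.7 and 89.7 CPM (reads per 1000000 reads counted in genes) in the knockout and at 238 and 228 CPM in wild type, leaving 36.2% of the wild-type level. Reads of Pml were thus still counted in the knockout, and which part of the transcript they come from was not tested. The embryonic stem cell markers Pou5f1, Sox2, Nanog, Zfp42, Esrrb and Klf4 summed to 4948 and 5056 CPM in the knockout and 5080 and 5011 CPM in wild type. The fibroblast list, which stands for feeder cells, summed to 5.82 and 6.52 CPM in the knockout and 7.58 and 6.80 CPM in wild type. Most of each sum was Thy1, at 4.17 and 4.64 CPM in the knockout and 5.64 and 4.74 CPM in wild type. Dcn had 0 reads in every library. In RNA from whole cultures, fewer cells of a type and less RNA per cell cannot be told apart.

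None of the WNT members differed between genotypes past the threshold. Of the 10, 9 had a mean of at least 1 CPM and entered the test (limma-trend on log2(CPM + 1), adjusted over 12710 genes), and 0 of these 9 had an adjusted p under 0.05, against 5.41% of all tested genes (1.95% higher and 3.45% lower in the knockout). Lef1 lay below the filter. At an unadjusted p under 0.05 there was 1 member, Axin2, against 19.3% of all tested genes. A count test on reads recovered from the CPM, which covered all 10 members, called 0 with edgeR (4.19% of its 14782 genes) and 0 with DESeq2 (3.76% of 12941 genes). The authors' deposited table, from edgeR, likewise held 0 of the 10 at a false discovery rate under 0.05, against 3.80% of its 24421 genes. The median log2 fold change (knockout minus wild type, on the log2(CPM + 1) scale, which understates changes of low genes) was 0.11 over the 9 members and -0.0029 over all tested genes. Both knockout libraries lay above both wild-type libraries for 4 of the 9 tested members (23.8% of all tested genes) and below them for 1 (25.5% of all tested genes). The limits of the difference are given member by member below, since a missed threshold does not show equal expression. Levels are compared between genotypes and not between genes, because transcript lengths were not used here.

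**Figure D1:**
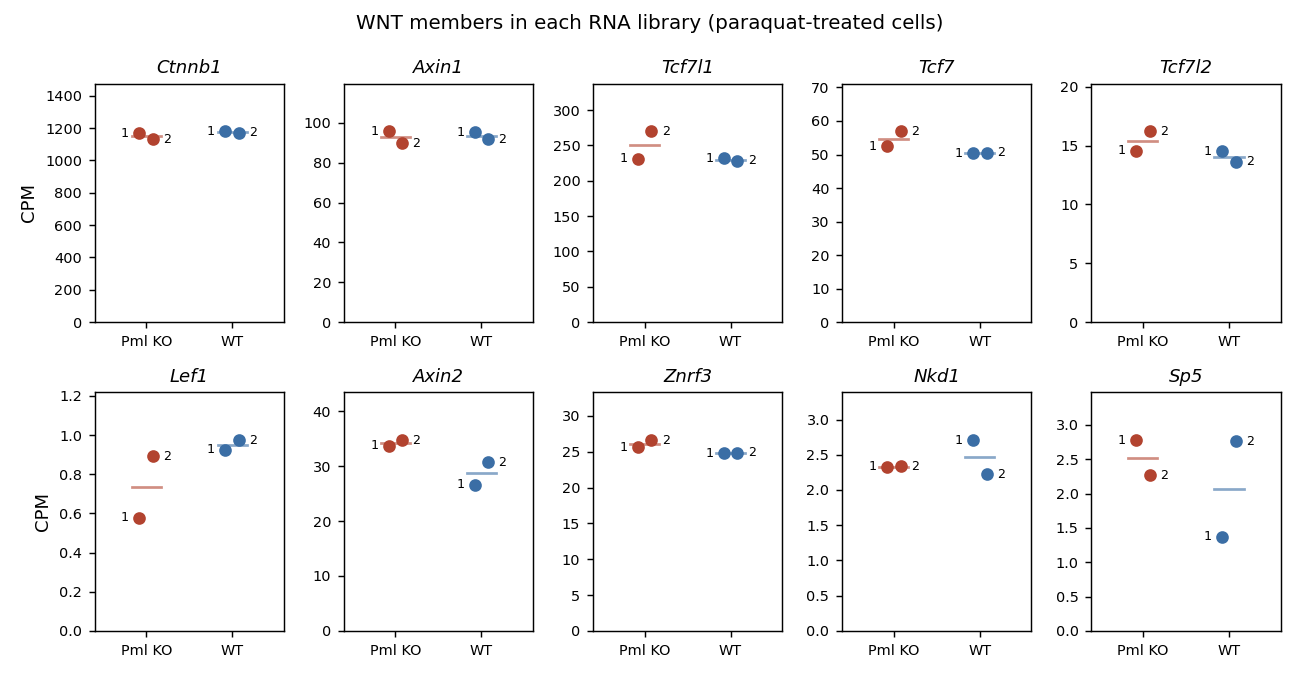
CPM of each WNT member in each library, with Pml knockout on the left and wild type on the right of each panel; points are libraries, numbered by replicate, and bars are group means (n = 2). Each panel has its own axis from 0. Axin2 was at 33.7 and 34.7 CPM in the knockout and 26.6 and 30.7 CPM in wild type, while the points of Ctnnb1 and Axin1 lie almost level.

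Ctnnb1 encodes beta-catenin, the coactivator through which the pathway acts and also a link of E-cadherin to the cytoskeleton. The gene lies on chromosome 9 from 120933400 to 120960507 (GRCm38.p6, the RefSeq assembly of the mm10 build; all gene positions are from it). It stood at 1169 and 1130 CPM in the knockout and at 1180 and 1172 CPM in wild type. Both knockout libraries were the lower ones, but the nearest knockout and wild-type libraries lay closer together than the knockout libraries did. The log2 fold change was -0.03 with a 95% interval of -0.12 to 0.06 (limma, adjusted p = 0.724). With 37028 to 51732 reads per library it had the most reads and the smallest standard error (0.04) of the tested members. Protein abundance and nuclear location, through which the pathway is controlled, were not measured by these libraries.

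Axin1 encodes the scaffold that limits assembly of the destruction complex. It lies on chromosome 17 from 26131217 to 26195811. Its level was 95.8 and 89.9 CPM in the knockout against 95.3 and 91.8 CPM in wild type, so the wild-type values fell inside the knockout range. The log2 fold change was -0.01 with a 95% interval of -0.13 to 0.11 (limma, adjusted p = 0.939). Its sign depended on single libraries, with 0.03 without knockout library 2 and 0.02 without wild-type library 1.

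TCF7L1, TCF7, TCF7L2 and LEF1 are the DNA-binding partners of beta-catenin, and share a high-mobility-group domain. TCF7L1 acts mostly as a repressor and TCF7 mostly as an activator in mouse embryonic stem cells. Tcf7l1, on chromosome 6 from 72626371 to 72789045, was at 231 and 270 CPM in the knockout and at 231 and 228 CPM in wild type. Only knockout library 2 stood above the rest, and knockout library 1 lay between the wild-type libraries. The mean was 251 ± 27.3 CPM in the knockout and 230 ± 2.47 CPM in wild type (SD, n = 2 each), a log2 fold change of 0.12 with a 95% interval of -0.0068 to 0.25 (limma, adjusted p = 0.289). Without knockout library 1 the difference was 0.23, and without knockout library 2 it was 0.0091, so its size rests on knockout library 2.

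Tcf7, on chromosome 11 from 52246527 to 52283383, was at 52.5 and 56.9 CPM in the knockout and at 50.3 and 50.5 CPM in wild type. The groups did not overlap, but the gap between them was smaller than the distance between the knockout libraries. Its log2 fold change was 0.11 with a 95% interval of -0.02 to 0.25 (limma, adjusted p = 0.359). It was 0.17 without knockout library 1 and 0.06 without knockout library 2, and passed under neither (adjusted p = 0.206 and 0.78).

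Tcf7l2, which in other tissues, such as the intestine, is the main partner of beta-catenin, lies on chromosome 19 from 55741797 to 55933659. It was at 14.5 and 16.2 CPM in the knockout and at 14.5 and 13.6 CPM in wild type. Knockout library 1 and wild-type library 1 were nearly equal, with 555 and 456 reads at their different depths. The log2 fold change was 0.12 with a 95% interval of -0.10 to 0.33 (limma, adjusted p = 0.574). For Tcf7l1, Tcf7 and Tcf7l2 alike, the higher knockout value was that of library 2, and the fold change without that library was below 0.06.

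Lef1, on chromosome 3 from 131110297 to 131224357, is itself a frequent target of the pathway in differentiating cells. It had 22 and 39 reads in the knockout libraries and 29 and 43 reads in the wild-type libraries. These are 0.58 and 0.89 CPM in the knockout and 0.92 and 0.97 CPM in wild type, with the knockout libraries both lower. The exact 95% counting intervals overlap, from 0.36 to 0.87 CPM for knockout library 1 and from 0.62 to 1.33 CPM for wild-type library 1. These intervals (Clopper-Pearson) cover counting error only. The count test, which needs fewer reads, gave a log2 fold change of -0.36 for Lef1 (edgeR, adjusted p = 0.691), which did not pass.

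Axin2 had the smallest p of the 9 tested members, and the largest log2 fold change on the log2(CPM + 1) scale. With a pseudocount of 0.25 Sp5 stood higher, at 0.32 against 0.26 for Axin2, and likewise with DESeq2, at 0.27 against 0.26. Axin2 encodes a paralog of AXIN1 that is induced by beta-catenin and feeds back on the destruction complex, and it is the most used reporter gene of the pathway. It lies on chromosome 11 from 108917828 to 108950783. Read counts were 1287 and 1519 in the knockout and 835 and 1357 in wild type, which give 33.7 and 34.7 CPM in the knockout against 26.6 and 30.7 CPM in wild type. The knockout libraries were both higher and close together, and the wild-type libraries differed more from each other. The mean was 34.2 ± 0.72 CPM in the knockout and 28.7 ± 2.93 CPM in wild type (SD, n = 2 each), a ratio of 1.19.

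The log2 fold change of Axin2 was 0.25 with a standard error of 0.08 and a 95% interval of 0.08 to 0.43 (limma, unadjusted p = 0.0077, adjusted p = 0.0933), so it did not pass the adjustment. The count tests gave an adjusted p of 0.112 with edgeR and 0.223 with DESeq2. In the authors' deposited table its log2 fold change, coded wild type over knockout, was -0.25, with a false discovery rate of 0.114. Leaving out wild-type library 2, whose kit entry names only the DNA kit, raised the difference to 0.35. Leaving out wild-type library 1 lowered it to 0.15. With 1 wild-type library kept, the spread between the wild-type libraries does not enter the fit. The size of the Axin2 difference therefore turns on which wild-type library is kept. Its direction could not turn in these fits, because both knockout libraries lay above both wild-type libraries.

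**Figure D2:**
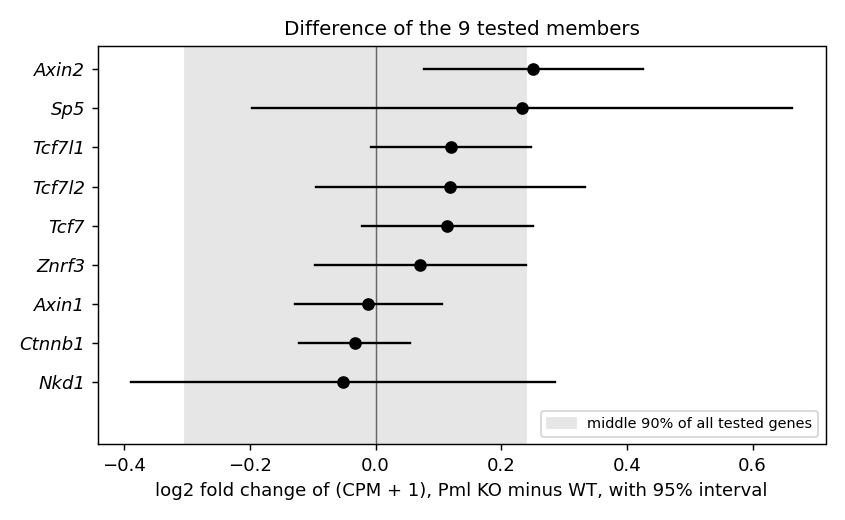
Log2 fold change of CPM + 1, Pml knockout minus wild type, for the 9 tested members (points) with 95% limma intervals (lines); the grey band spans the middle 90% of all tested genes, from -0.30 to 0.24. The interval of Axin2 alone lies wholly above 0, and those of Sp5 and Nkd1 are the widest.

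Znrf3 encodes a membrane ubiquitin ligase that removes Frizzled receptors, and is another feedback target. It lies on chromosome 11 from 5276329 to 5444847. It was at 25.6 and 26.6 CPM in the knockout and at 24.8 and 24.9 CPM in wild type. All 4 libraries lay close together, with the knockout pair on top. The log2 fold change was 0.07 with a 95% interval of -0.10 to 0.24 (limma, adjusted p = 0.688). Its product acts on the receptors, above the step that CHIR99021 blocks.

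Nkd1 encodes Naked cuticle 1, which binds Dishevelled and restrains the pathway. It lies on chromosome 8 from 88521342 to 88594887. It was at 2.33 CPM in both knockout libraries (89 and 102 reads) and at 2.71 and 2.22 CPM in wild type (85 and 98 reads). The knockout values fell between the wild-type values. The log2 fold change was -0.05 with a 95% interval of -0.39 to 0.28 (limma, adjusted p = 0.9), and it was 0.05 without wild-type library 1. The 653 tested genes of chromosome 8 had a median log2 fold change of -0.06, against -0.0029 over all tested genes, and the part of this in the Nkd1 value was not tested.

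Sp5 encodes a zinc finger repressor of the SP family that is a direct beta-catenin target. It lies on chromosome 2 from 70474923 to 70477726. It was at 2.78 and 2.26 CPM in the knockout and at 1.37 and 2.76 CPM in wild type. Wild-type library 1 was the low one, with 43 reads and an exact 95% counting interval of 0.99 to 1.85 CPM. Wild-type library 2, with 122 reads and an interval of 2.30 to 3.30 CPM, matched the knockout libraries. The wild-type libraries thus differed from each other by 0.67 on the log2(CPM + 1) scale, more than the genotypes did, at a log2 fold change of 0.23 with a 95% interval of -0.20 to 0.66 (limma, adjusted p = 0.584). Without wild-type library 1 the sign turned, to -0.10. Axin2 was also higher in wild-type library 2 than in wild-type library 1, by 0.20 on the same scale, whereas Nkd1 was lower there by 0.20.

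**Figure D3:**
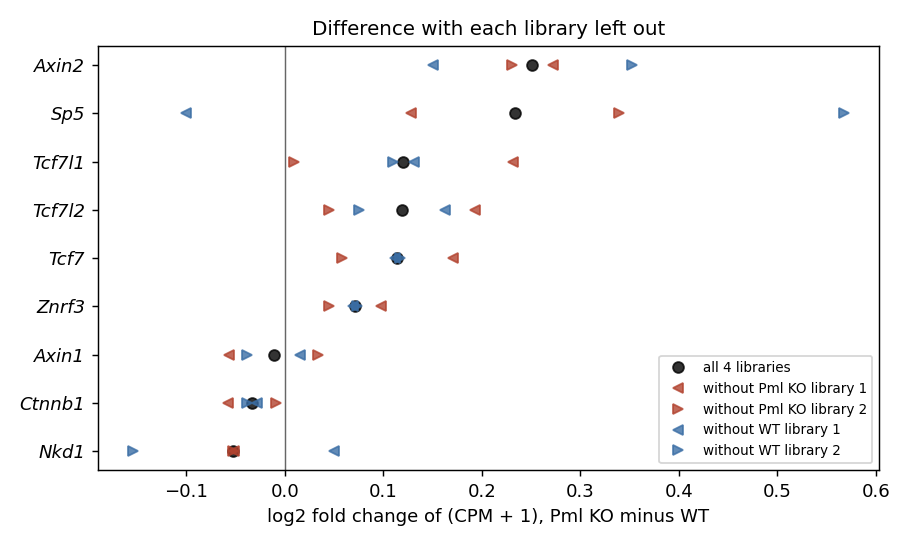
Log2 fold change of CPM + 1, Pml knockout minus wild type, for the 9 tested members with all 4 libraries (black circles) and with 1 library left out (red triangles for knockout, blue for wild type; left-pointing for library 1, right-pointing for library 2). Sp5 ranges from -0.10 to 0.57 and Axin2 from 0.15 to 0.35, while Znrf3 stays between 0.04 and 0.10.

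The promoters of Axin2 and Sp5, the 2 members with the highest log2 fold changes of CPM + 1, are shown because TCF/LEF factors reach their targets through the motif CTTTGAT or its variant CTTTGAA. The sequences are RefSeq promoters of GRCm38.p6, 250 bases up to the base before the start that the promoter table lists, on the plus strand, which is the sense strand of both genes. For Sp5 that start is the first base of the gene given above, while for Axin2 it lies inside the gene's span, downstream of its first base. Capitals mark a match to either motif, searched on both strands; the motifs differ in their last base and cannot overlap on one strand.
Axin2 promoter, chr11:108920099-108920348: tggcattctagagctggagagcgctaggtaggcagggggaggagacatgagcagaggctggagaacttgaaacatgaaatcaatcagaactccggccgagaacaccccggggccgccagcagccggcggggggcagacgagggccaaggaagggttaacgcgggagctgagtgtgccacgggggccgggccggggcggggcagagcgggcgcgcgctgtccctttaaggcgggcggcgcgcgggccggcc
Sp5 promoter, chr2:70474673-70474922: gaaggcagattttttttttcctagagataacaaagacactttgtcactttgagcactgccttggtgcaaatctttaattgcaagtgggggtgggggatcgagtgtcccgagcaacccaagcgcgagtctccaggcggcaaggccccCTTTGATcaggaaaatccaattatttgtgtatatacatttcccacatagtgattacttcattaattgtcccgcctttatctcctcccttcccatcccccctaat
Sp5 holds CTTTGAT on the sense strand, from 104 to 98 bases upstream of that start, and the window of Axin2 holds neither motif. Of the 10 members 8 had a promoter in the table, with 14 windows in all, and that of Sp5 was the only 1 with a match. Over all 32851 promoters of this length, 3.21% held CTTTGAT, 4.46% held CTTTGAA and 7.48% held either one. A match describes the letters of the window and was not tested for binding.

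Around the members, 10 lists of other pathway and target genes held 138 genes, of which 104 were tested. Of these 7 rose and 5 fell in the knockout, 11.5% of those tested, against 5.41% of all tested genes. Their median log2 fold change was -0.01. The lists were chosen with earlier results of these data known, so these shares are no test of the pathway. The counts of each list below stand beside the same shares of all tested genes. These were 1.95% called higher, 3.45% called lower and 19.3% at an unadjusted p under 0.05 (limma). The count of 12 was 6 without wild-type library 1 and 19 without wild-type library 2.

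**Figure D4:**
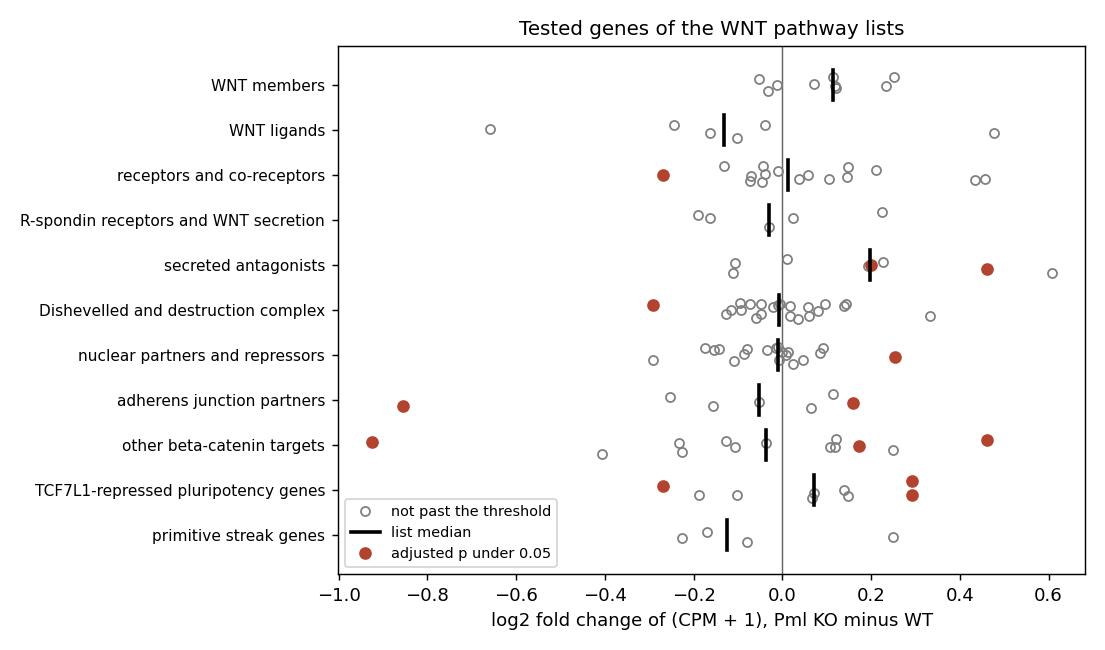
Log2 fold change of CPM + 1, Pml knockout minus wild type, for each tested gene of the WNT members and of the 10 other lists (vertical position within a list is random); filled points had a limma adjusted p under 0.05 over all genes, and black bars are list medians. No filled point lies in the row of the members, and the lowest filled points are Bmp4 at -0.93 and Cdh3 at -0.86.

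WNT ligands were scarce. Of 19 genes 6 passed the filter, 0 were called (2 at an unadjusted p under 0.05), and the ligand genes together summed to 13.3 and 13.5 CPM in the knockout and 17.7 and 13.8 CPM in wild type. Their median log2 fold change was -0.13. Wnt7b was at 3.12 and 4.05 CPM in the knockout and 2.45 and 2.11 CPM in wild type (log2 fold change 0.48, limma adjusted p = 0.103). Wnt6 was at 1.68 and 2.86 CPM in the knockout and 5.67 and 2.86 CPM in wild type (log2 fold change -0.66, limma adjusted p = 0.116). For Wnt6 wild-type library 1 was the high one and wild-type library 2 was level with knockout library 2. Without wild-type library 2 the log2 fold change was -1.05. That fit keeps 1 wild-type library and so leaves out the spread between the wild-type libraries.

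Of 16 receptor and co-receptor genes, all of them tested, 1 fell and 0 rose, with a median of 0.01. The gene that fell was Ptk7, a receptor pseudokinase of planar cell polarity that also takes part in WNT signalling. It was at 167 and 167 CPM in the knockout and 200 and 203 CPM in wild type (a log2 fold change of -0.27 with SE 0.05 and adjusted p = 0.0026 by limma). The libraries of each genotype agreed closely, and the call held in each of the 4 fits that left out a library. Among R-spondin receptor and WNT secretion genes 0 of 5 tested were called (1 at an unadjusted p under 0.05), with a median of -0.03. Wls, the carrier that brings WNT proteins to the cell surface, was at 13.3 and 13.8 CPM in the knockout and 11.5 and 11.4 CPM in wild type (log2 fold change 0.23, limma adjusted p = 0.237). Rspo1, a secreted ligand of LGR receptors, was at 2.52 and 3.25 CPM in the knockout and 3.44 and 3.38 CPM in wild type (log2 fold change -0.19, limma adjusted p = 0.556). The difference in Rspo1 was -0.33 without knockout library 2 and -0.05 without knockout library 1.

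Among genes of extracellular antagonists 2 of 8 tested rose and 0 fell, with a median of 0.20. Apcdd1, a membrane-bound antagonist that is itself a beta-catenin target, was at 30.5 and 29.6 CPM in the knockout and 21.1 and 22.0 CPM in wild type. Its log2 fold change was 0.46 (SE 0.08, limma adjusted p = 0.0032), a ratio of 1.39, and the call held in each of the 4 fits that left out a library. Sfrp1, a secreted protein that binds WNT ligands, was at 231 and 236 CPM in the knockout and 199 and 208 CPM in wild type. It rose by 0.20 on the log2 scale (SE 0.05, limma adjusted p = 0.0178). The call on Sfrp1 ended without wild-type library 1 (adjusted p = 0.183), without knockout library 2 (adjusted p = 0.0521) and with no filter on low values (adjusted p = 0.059).

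The destruction complex and Dishevelled list had 1 of 22 tested genes lower and 0 higher, with a median of -0.0077. Csnk1e, casein kinase 1 epsilon, which phosphorylates Dishevelled, was at 103 and 110 CPM in the knockout and 137 and 125 CPM in wild type (log2 fold change -0.29, SE 0.06, limma adjusted p = 0.0068; adjusted p = 0.0597 without wild-type library 1). Of 19 tested nuclear partners and repressors 1 rose and 0 fell, with a median of -0.01. It was Tbl1x, a subunit of the NCoR corepressor complex, at 92.5 and 91.2 CPM in the knockout and 74.8 and 79.1 CPM in wild type (log2 fold change 0.25, SE 0.05, limma adjusted p = 0.0131; adjusted p = 0.117 without wild-type library 1).

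Adherens junction partners, which share beta-catenin with the pathway, had 1 of 7 tested genes higher and 1 lower, with a median of -0.05. Cdh3, P-cadherin, was at 13.3 and 14.9 CPM in the knockout and 28.0 and 24.5 CPM in wild type. It fell by 0.86 on the log2 scale (SE 0.10, limma adjusted p = 7.58e-05), and wild-type cells had 1.87 times the knockout level. Ctnnd1, p120-catenin, which holds cadherins at the membrane, was at 330 and 341 CPM in the knockout and 295 and 304 CPM in wild type (log2 fold change 0.16, SE 0.04, limma adjusted p = 0.0456). That call ended without knockout library 2 (adjusted p = 0.128), wild-type library 1 (0.309) or wild-type library 2 (0.0748), with TMM scaling (0.0535), with edgeR on recovered reads (0.0719), with a mean of at least 0.1 CPM as filter (0.0531) and with no filter (0.107).

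Of 13 other tested beta-catenin targets 2 rose and 1 fell, with a median of -0.04. Bmp4, a ligand of the BMP pathway, was at 5.98 and 7.30 CPM in the knockout and 15.1 and 12.0 CPM in wild type. It fell by 0.93 on the log2 scale (SE 0.13, limma adjusted p = 0.00067), and the call held in each of the 4 fits that left out a library. The targets that rose were Apcdd1, described above, and Tdgf1, which encodes the NODAL co-receptor CRIPTO. Tdgf1 was at 233 and 246 CPM in the knockout and 216 and 209 CPM in wild type. It rose by 0.17 on the log2 scale (SE 0.05, limma adjusted p = 0.0444). The call on Tdgf1 ended without knockout library 2 (adjusted p = 0.176), wild-type library 1 (0.0811) or wild-type library 2 (0.195), with edgeR on recovered reads (0.0603) and with no filter (0.104).

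The 9 pluripotency genes listed as repressed by TCF7L1 were all tested, and 2 rose and 1 fell, with a median of 0.07. Repression by TCF7L1 was itself not measured here. At an unadjusted p under 0.05 by limma there were 7 of the 9, against 19.3% of all tested genes. Of the 7, Nanog, Klf2, Tfcp2l1 and Nr5a2 were higher in the knockout, and Nr0b1, Pou5f1 and Zfp42 were lower. All 9 were well expressed, with standard errors of 0.04 to 0.07, and small differences reach this p more easily at such levels. Both knockout libraries lay above both wild-type libraries for 5 of the 9 (23.8% of all tested genes) and below them for 3 (25.5%). Nr5a2, an orphan nuclear receptor gene, was at 117 and 126 CPM in the knockout and 95.6 and 102 CPM in wild type (log2 fold change 0.29, SE 0.06, limma adjusted p = 0.0068; adjusted p = 0.0507 without knockout library 2). Tfcp2l1, a transcription factor of naive pluripotency, was at 1005 and 981 CPM in the knockout and 726 and 903 CPM in wild type (log2 fold change 0.29, SE 0.07, limma adjusted p = 0.0241). Its wild-type libraries lay further apart than the nearest knockout and wild-type libraries, and the call ended without knockout library 1 (adjusted p = 0.0509), without wild-type library 1 (log2 fold change 0.14, adjusted p = 0.319), with no filter (0.146) and with DESeq2 (0.504). Without wild-type library 2 the difference in Tfcp2l1 was 0.45, in a fit that leaves out the spread between the wild-type libraries. Zfp42, also called Rex1, a marker of naive cells, was at 695 and 653 CPM in the knockout and 827 and 796 CPM in wild type (log2 fold change -0.27, SE 0.04, limma adjusted p = 0.0025). Zfp42, Cdh3 and Sfrp1 lie on chromosome 8, whose lower median is given with Nkd1, and its part in their values was not tested.

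Primitive streak genes, which beta-catenin activates as stem cells differentiate, were low, with 4 of 10 tested and 0 called (0 at an unadjusted p under 0.05), and a median of -0.13. Cdx1 was at 9.78 and 9.90 CPM in the knockout and 7.01 and 9.38 CPM in wild type (log2 fold change 0.25, limma adjusted p = 0.322). The difference in Cdx1 was 0.44 without wild-type library 2 (adjusted p = 0.0586) but 0.06 when wild-type library 1 was left out (adjusted p = 0.923). Eomes was at 5.74 and 5.97 CPM in the knockout and 6.85 and 6.57 CPM in wild type (log2 fold change -0.17, limma adjusted p = 0.503). Marker lists of other fates moved with genotype in part. The neuroectoderm list of Sox1, Pax6 and Nes summed to 47.6 and 46.9 CPM in the knockout and 62.4 and 66.4 CPM in wild type. Sox1 and Nes were called lower (2 of 3, against 3.45% of all tested genes), and Pax6 was not called (log2 fold change 0.05). Sox1 lies on chromosome 8, whose lower median is given with Nkd1, and its part in the Sox1 value was not tested. The trophoblast list summed to 77.0 and 78.4 CPM in the knockout and 55.3 and 61.3 CPM in wild type, mostly from Tfap2c. Tfap2c was called higher (log2 fold change 0.44, limma adjusted p = 0.00085), 1 of 2 tested genes against 1.95% of all tested genes. Gata3 was not called (log2 fold change 0.16), Cdx2 lay below the filter, and Elf5 was at 0 to 2 reads per library. The primed epiblast list summed to 193 and 199 CPM in the knockout and 207 and 201 CPM in wild type, and 1 of its 3 tested genes, Pou3f1, fell. The primitive endoderm list summed to 8.47 and 11.1 CPM in the knockout and 9.62 and 8.18 CPM in wild type. Their part in the values of the WNT genes was not tested.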

How the data were processed

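The submitters' processing notes name cutadapt, TopHat and edgeR and the mm10 build. The sources used here do not give their versions, the annotation, how reads were counted or whether strand was used. Per gene symbol, the deposited table holds 1 CPM value for each library, with the authors' edgeR output: a p-value, a false discovery rate, a log2 fold change and a log2 mean level. Each library's CPM sums to 1000000, and dividing by the smallest step gave whole reads for 100% of values (tolerance 0.001 reads).

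The 12710 genes averaging 1 CPM or more were tested on log2(CPM + 1) by limma-trend, from limma 3.58.1 in R 4.3.3, genotype as the only term, 2-sided, with Benjamini-Hochberg adjustment and a threshold of 0.05. Alternatives were edgeR 4.0.16 (quasi-likelihood, TMM, filterByExpr) and DESeq2 1.42.0 on recovered reads, TMM scaling, other pseudocounts and filters, a replicate block, and leaving out each library over the same 12710 genes. The limma, edgeR and DESeq2 fits with all 4 libraries were also run on simulated counts, and no outcome of that run is given here. Members and lists were chosen with earlier results of these data known. Besides members and Pml, the named genes were up to 4 called genes of each list by smallest adjusted p, or, with none called, the 2 of smallest adjusted p; marker genes are named with their lists. Positions and promoters came from RefSeq (GRCm38.p6), matched by symbol.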

Additional observations from a re-analysis of the deposited data

How the results depend on the processing

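With all 4 libraries 0 members, 12 other pathway genes and 687 of all tested genes were called. Leaving out each library in turn gave 0 to 1 members, 6 to 19 other pathway genes and 423 to 879 genes in all; the member was Tcf7l1 without knockout library 1 and Axin2 without wild-type library 2. With no filter on low values 298 genes in all were called. The replicate numbers were not shown to pair the libraries: replicate 1 minus 2 correlated across genes at 0.12 between genotypes, over only 2 pairs. With the replicate number as a block 1198 genes, 22 other pathway genes and 1 member, Axin2 (adjusted p = 0.0274), were called, and the ligands Wnt7b (adjusted p = 0.048) and Wnt6 (0.0229) also passed. The sign of the log2 fold change turned for Axin1 (range -0.057 to 0.034 over the fits that left out a library, 0.034 without knockout library 2 and 0.015 without wild-type library 1), Nkd1 (-0.15 to 0.05, with 0.049 without wild-type library 1) and Sp5 (-0.10 to 0.57, -0.10 without wild-type library 1), and for none of the other genes among the 28 run through the alternatives, which leave out the cell type markers that are on no pathway list. Over these 28 genes and 308 gene-by-alternative fits, 276 kept direction and side of the threshold, 22 lost a call, 6 gained one and 4 turned sign. For a gene whose libraries do not overlap between genotypes, leaving out a library cannot turn the sign. With 2 libraries per genotype, the number of libraries limits precision for well-expressed members, and counting error adds to it for Lef1, Nkd1 and Sp5. A fit with 1 library in a group assumes that it varies like the other group.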
